A study of Mus musculus with 12 samples.

Results

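The heme synthesis enzymes described here are 8 genes, Alas1, Alas2, Alad, Uros, Urod, Cpox, Ppox and Fech, chosen by name as members of 1 pathway. Measured values did not enter this rule, but earlier results of these data were known when the members were chosen. All 8 were represented on both array designs of the study, among 13356 genes that both designs share. They had 19 probe sets with a single gene symbol among 45037 on the Mouse Genome 430 2.0 arrays, and 8 transcript clusters among 23238 on the Mouse Exon 1.0 ST arrays. The cells were PUER cells, mouse myeloid progenitors without endogenous PU.1 that express a fusion of this transcription factor with the ligand-binding domain of the estrogen receptor, which 4-hydroxytamoxifen (OHT) activates. Per the labels, arrays were run on cells treated with 100 nM OHT for 24 h and on uninduced cells (0 h), all cultured with interleukin-3 at 5 ng/ml, serum and puromycin. Each of the 4 combinations of design and time had 3 arrays, and a single cell line stands for all of them. The labels do not state whether the 3 arrays of a group were of separate cultures, and the p-values therefore measure the spread between arrays alone, which may be technical.

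Heme is an iron-containing ring carried by hemoglobin, cytochromes, catalase and the phagocyte oxidase. Its synthesis starts in the mitochondrion, where ALAS1, the form used in most tissues, or ALAS2, the form of red cell precursors, joins glycine to succinyl-CoA. The middle steps run in the cytosol (ALAD, UROS and UROD), and the last return to the mitochondrion (CPOX, PPOX and FECH, which inserts the iron). The ALAS step limits the rate, and heme itself holds ALAS1 down.

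The labels of the designs oppose each other. Across the 13356 shared genes the labelled changes correlated at r = -0.861 (Spearman rho = -0.723; genes are not independent replicates), and 3713 of the 3770 genes that passed the test on both ran in opposite directions. Directions are therefore given as labelled, and the reading with the 0 h and 24 h labels of the exon arrays exchanged is given beside them. The labels do not settle which design has the right direction. The log2 signals ran from 2.43 to 15.02 on the 430 arrays, and from 0.649 to 13.89 on the exon arrays. Within a group the lowest correlation between arrays across features was r = 0.985, and the median SD within groups was 0.101 on the 430 design and 0.162 on the exon design. The progenitor markers Kit, Myb, Gfi1 and Mpo were above the median of all features on both designs, and Cd34 was below it on both.

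All members but Fech had entries in the RefSeq promoter table (assembly GRCm38.p6), with 10 windows of 250 bases before an annotated start. They are shown because Alas1, Alad and Cpox moved together and Alas2 did not move with them. The signal of Alas2 lay below the array medians on both designs, which limits what its lack of a call can show. Capitals mark matches, on either strand, to 3 kinds of word: CACGTG, an E-box bound by MYC and USF proteins; AGATAA or TGATAA, bound by GATA factors; and GAGGAA, the core of PU.1 sites. No matches overlapped each other. The windows of Cpox (chr16:58669958-58670207, plus strand) and Alas2 (chrX:150547167-150547416, plus strand) read, 5′ to 3′:
Cpox: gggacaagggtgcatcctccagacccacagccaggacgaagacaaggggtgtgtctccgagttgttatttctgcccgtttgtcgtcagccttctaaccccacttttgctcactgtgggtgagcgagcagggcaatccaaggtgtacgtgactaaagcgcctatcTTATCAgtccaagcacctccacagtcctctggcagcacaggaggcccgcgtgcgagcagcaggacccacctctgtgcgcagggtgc
Alas2: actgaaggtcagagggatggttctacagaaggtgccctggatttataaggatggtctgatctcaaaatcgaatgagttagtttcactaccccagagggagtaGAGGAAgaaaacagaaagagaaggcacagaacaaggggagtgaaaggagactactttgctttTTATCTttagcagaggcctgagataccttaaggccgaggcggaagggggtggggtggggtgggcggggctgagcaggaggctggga

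Both windows held a GATA word on the opposite strand, in each case 86 bases before the start. Short stretches around the E-box matches in the other members are given for comparison, all on the minus strand.
Alad first start, chr4:62520151-62520180: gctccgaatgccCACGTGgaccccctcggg
Alad second start, chr4:62519920-62519949: ccgccccgccccCACGTGggcttgcgcttt
Urod, chr4:116994445-116994474: cactggatcggtCACGTGgttctcaatatg
Uros first start, chr7:133709516-133709545: CACGTGtgctttctcacctcgtccacgatt

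The E-box word stood in 4 of the 10 member windows, those of Alad, Uros and Urod, against 6.02% of all 32851 windows of the table. GATA words stood in 3 windows (Alas2, Cpox and the second start of Uros) against 16.6%, and the PU.1 core in 2 (Alas2 and the first start of Uros) against 23.3%; the stretches of Uros for these words are not shown. No word was found in the windows of Alas1 and Ppox. Alas1, Alad and Cpox thus had no kind of word in common, and a link between the words and the changes was not tested. These are matches of letters, and no binding was measured.

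On the 430 arrays labelled 24 h, the first, the second and the antepenultimate enzyme of the pathway were lower than in those labelled 0 h: Alas1 by 0.90, Alad by 1.24 and Cpox by 1.97 log2 units. They were the 3 of 8 members called lower, with none called higher, where 26.1% of the 18193 genes of this design were called lower and 26% higher. A gene was called at an adjusted p under 0.05 in limma's two-sided test, with Benjamini-Hochberg adjustment over all features of the design. The median change of the 8 members was -0.17 log2 units, against 0.063 for all genes. Counted by overlap, 5 members had all 24 h arrays below all 0 h arrays (29% of all genes did) and 1 had them above (32% of all genes did).

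**Figure D1:**
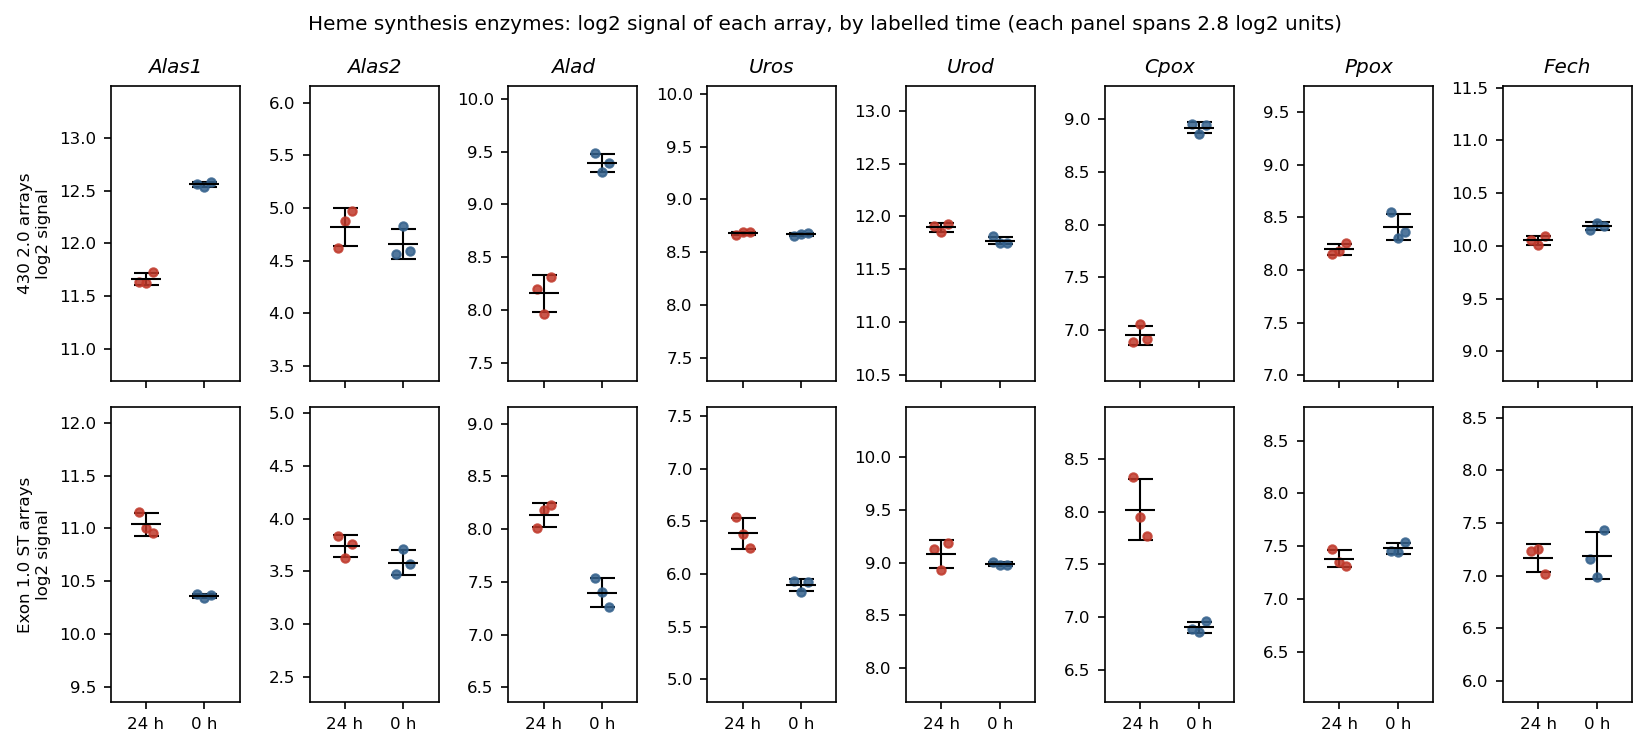
Log2 signal (vertical axis, 2.8 log2 units in every panel) of each heme enzyme on each array, with 430 arrays in the top row, exon arrays in the bottom row, and labelled 24 h left of 0 h. Points are arrays, and bars are the mean and SD over 3 arrays. Alas1, Alad and Cpox separate the times on both designs and in opposite directions, and Uros separates them on the exon arrays alone. Urod (higher at 24 h), Ppox and Fech (lower) separate them by small gaps on the 430 arrays alone, without a call.

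Cpox, coproporphyrinogen oxidase, had the largest difference among the members. Its log2 signals were 6.88, 7.06 and 6.91 on the 430 arrays labelled 24 h, against 8.95, 8.86 and 8.94 at 0 h. Every 24 h array was more than 1 log2 unit below every 0 h array. The change was -1.97 ± 0.0719 (SE), 3.91-fold lower at 24 h (limma adjusted p = 9.78e-08). Both other probe sets of Cpox were also called lower, with changes of -1.42 and -0.35 (adjusted p = 1.80e-06 and 0.00324); the last lay at a mean signal of 3.47 at 24 h and 3.82 at 0 h, below the median of this array. The mean over its 3 probe sets changed by -1.25 (adjusted p = 1.86e-07).

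Alad, the cytosolic enzyme that joins a pair of aminolevulinate molecules into porphobilinogen, read 8.19, 7.96 and 8.31 at 24 h, against 9.48, 9.31 and 9.39 at 0 h. The groups lay apart, with the 24 h arrays the more scattered. The change was -1.24 ± 0.0974 (SE), 2.36-fold lower at 24 h (limma adjusted p = 9.67e-06). Its other probe set, at a mean of 5.57 at 24 h and 5.65 at 0 h, was not called (-0.082, adjusted p = 0.308), and the mean of both changed by -0.66 (adjusted p = 3.43e-05).

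Alas1, the first enzyme, read 11.63, 11.62 and 11.72 at 24 h, against 12.56, 12.53 and 12.58 at 0 h. The spread within each group was small beside the gap between them. The change was -0.90 ± 0.0631 (SE), 1.87-fold lower at 24 h (limma adjusted p = 4.74e-06), and the second probe set gave -0.87 ± 0.0765 (adjusted p = 1.97e-05). The suffix of that second probe set marks probes that may also match other transcripts.

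Alas2 and Uros were not called on the 430 arrays. Alas2, the red cell form, had means of 4.82 ± 0.18 at 24 h and 4.66 ± 0.146 at 0 h (SD, n = 3 each), both below the array medians of 5.78 to 5.87, with overlapping groups and no call (0.16, 95% interval -0.084 to 0.41, limma adjusted p = 0.255). Uros, which closes the ring, had 8.68 ± 0.0154 at 24 h and 8.67 ± 0.0151 at 0 h, a change of 0.0091 with an interval of -0.13 to 0.14 (adjusted p = 0.915). Its second probe set was not called either (-0.084, adjusted p = 0.439).

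Urod, Ppox and Fech had probe sets that did not move together. Urod, which trims side chains of the ring, changed by 0.12 on the probe set with the highest signal (limma adjusted p = 0.139) and by -0.24 on the other, which was called lower (0.0144). The first of these carries the suffix for probes that may match other transcripts. Ppox, the penultimate enzyme, changed by -0.21 (adjusted p = 0.0594), while a dimmer probe set with means of 5.68 at 24 h and 5.21 at 0 h was called higher (0.48, adjusted p = 0.015) and the third was not called (0.057, adjusted p = 0.558). Without 0 h array 2 the first Ppox probe set was called lower (-0.26, adjusted p = 0.0473). Fech, the ferrochelatase, changed by -0.13 on its highest probe set (adjusted p = 0.113), by -0.27 (called lower, 0.0063) and 0.057 (0.538) on the next, and by 0.32 on its dimmest (called higher, 0.0324). Over all 19 probe sets, which share targets within a gene, 8 were called lower, 2 higher and 9 not, where 23.5% and 22.3% of all probe sets were called lower and higher. The counts for Ppox and Fech move with the setting. Both were called lower once array medians were removed (limma adjusted p = 0.0232 and 0.0287), which moved all genes to 5225 lower and 3559 higher, against 4747 and 4736. Ppox and Fech were also called lower once dim features were left out (limma adjusted p = 0.027 and 0.0436), and with an intensity trend in the variances (0.0306 and 0.0398). Counts over all genes are not given for the filter and the trend.

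**Figure D2:**
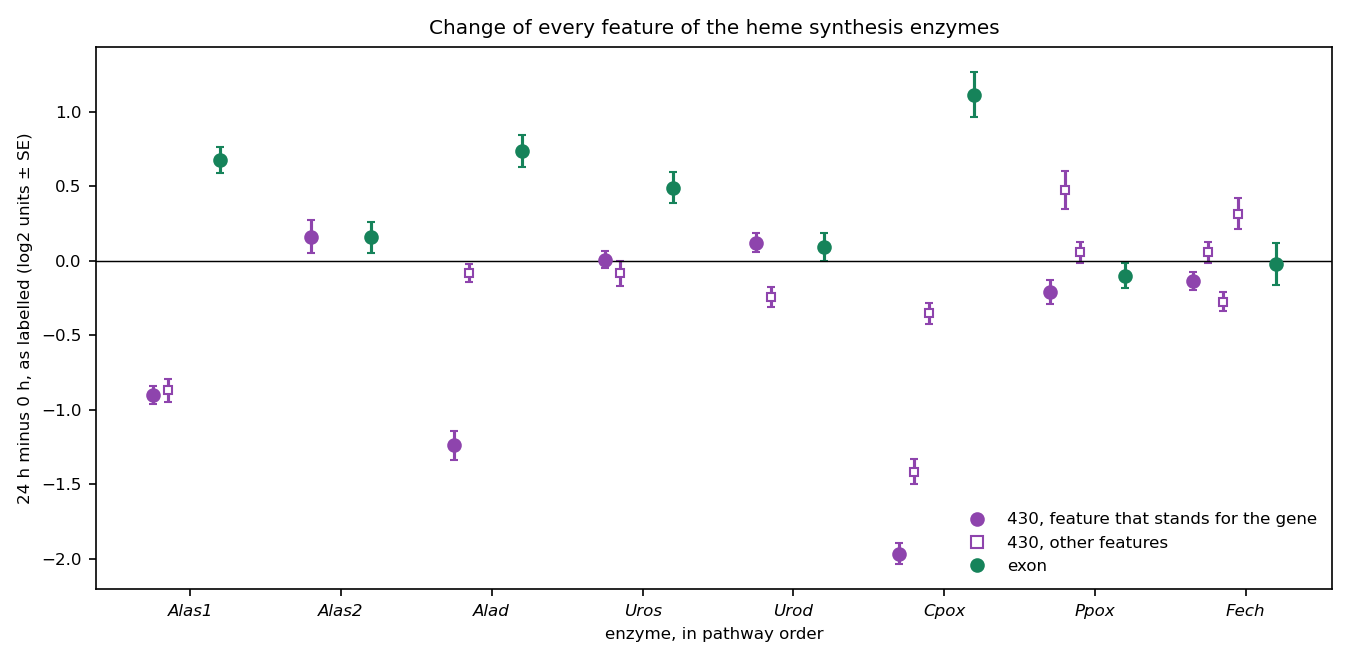
Labelled change, 24 h minus 0 h in log2 units (vertical axis), of every probe set or transcript cluster of each enzyme in pathway order, with bars of 1 SE. Filled purple circles are the 430 probe sets with the highest mean, open squares the other 430 probe sets and green circles the exon arrays. The 3 Cpox probe sets and both Alas1 probe sets lie below 0, while Urod, Ppox and Fech have probe sets on either side.

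On the exon arrays, Alas1, Alad and Cpox were higher in the arrays labelled 24 h, by 0.68, 0.74 and 1.12 log2 units, and Uros was higher by 0.49. These were 4 of 8 members, with none called lower, where 19.3% of 14807 genes were called higher and 10.8% lower. With quantile normalization the split of called genes moved to 2409 higher and 2092 lower, against 2856 and 1606 with the deposited values. The median change of the 8 members was 0.33, against 0.0064 for all genes. The same 4 members had all 24 h arrays above all 0 h arrays, as did 27.6% of all genes, and none had them below, as 19.6% did. With the exon labels exchanged the 4 members count as lower and every exon change of this section takes the opposite sign.

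Cpox read 8.33, 7.95 and 7.77 on the exon arrays labelled 24 h, against 6.89, 6.85 and 6.96 at 0 h. The 24 h arrays were all higher and were the more scattered. The change was 1.12 ± 0.154 (SE), 2.17-fold higher at 24 h (limma adjusted p = 0.00363). Alad read 8.01, 8.18 and 8.22 at 24 h, against 7.53, 7.40 and 7.26 at 0 h. Here both groups had a similar spread and did not overlap. The change was 0.74 ± 0.11 (SE), 1.67-fold (adjusted p = 0.00469).

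Alas1 read 11.16, 11.003 and 10.96 at 24 h, against 10.38, 10.34 and 10.37 at 0 h. The 0 h arrays lay within 0.1 log2 units of each other and below all 24 h arrays. The change was 0.68 ± 0.0872 (SE), 1.6-fold higher at 24 h (limma adjusted p = 0.00281). Uros read 6.54, 6.38 and 6.24 at 24 h, against 5.94, 5.83 and 5.92 at 0 h. The groups did not overlap, though the nearest arrays of the groups lay close. The change was 0.49 ± 0.103 (adjusted p = 0.0172). The Uros call was lost without 0 h array 1 (0.51, adjusted p = 0.0505), without 0 h array 2 (0.46, adjusted p = 0.0649) and without 24 h array 2 (0.49, adjusted p = 0.06).

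Alas2, Urod, Ppox and Fech were not called on the exon arrays, and their groups overlapped. Alas2 had means of 3.74 ± 0.107 at 24 h and 3.58 ± 0.119 at 0 h (SD, n = 3 each), again below the array medians of 5.39 to 5.42, and a change of 0.16 with a 95% interval of -0.093 to 0.41. Urod changed by 0.095 (-0.14 to 0.33), Ppox by -0.10 (-0.30 to 0.10) and Fech by -0.023 (-0.37 to 0.32). The intervals show how large a change these arrays could have missed, and a p above the threshold does not show that the levels were equal. In exact permutation tests of single genes, 3 arrays against 3 cannot go below p = 0.1.

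Set side by side, 3 members (Alas1, Alad and Cpox) were called lower on the 430 arrays and higher on the exon arrays labelled 24 h, as were 18.3% of the shared genes, and none the reverse, as were 9.54%. No member was called in 1 direction on both, and only 57 of the 13356 shared genes were. Alas2, Urod, Ppox and Fech were called on neither, a count for which no share over the shared genes is given here. The difference between the labelled changes, 430 minus exon, was tested in 1 limma model over all 12 arrays and was called for 4 of 8 members, where 58% of shared genes were called. It was -3.09 ± 0.16 for Cpox, -1.98 ± 0.144 for Alad, -1.58 ± 0.101 for Alas1 and -0.48 ± 0.111 for Uros (SE; limma adjusted p = 3.42e-10, 1.52e-08, 3.60e-09 and 0.00161).

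With the exon labels exchanged, the difference remained called for 3 members, where 22.8% of shared genes were called. On its brightest probe set Cpox fell further on the 430 arrays than on the exon arrays, by a difference of -0.85 (95% interval -1.19 to -0.51, limma adjusted p = 0.00208), and so did Alad (-0.50, -0.81 to -0.19, adjusted p = 0.0229). Uros differed the other way (0.50, 0.26 to 0.74, adjusted p = 0.00544), with 0.0091 on the 430 arrays and a change of -0.49 on the exon arrays under exchanged labels. For Alas1 the exchanged difference was -0.22 (-0.44 to -0.0061, adjusted p = 0.13). These differences rest on the probe set with the highest signal. With means over all features of a gene, an alternative chosen after seeing the data, the exchanged difference was called for 1 member, where 20.2% of shared genes were called. That member was Uros (0.45, adjusted p = 0.0116), while Cpox gave -0.13 (95% interval -0.46 to 0.20, adjusted p = 0.608) and Alad 0.078 (-0.19 to 0.34, adjusted p = 0.702). On the probe sets with the highest signal, the exon change of Cpox was 0.568 times the size of its 430 change, that of Alad 0.596 times and that of Alas1 0.752 times. Over the genes called in opposite directions on the designs, the median of this ratio was 0.991. With means over all features the ratio was 0.897 for Cpox, 1.12 for Alad and 0.765 for Alas1, and the median 1.10.

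**Figure D3:**
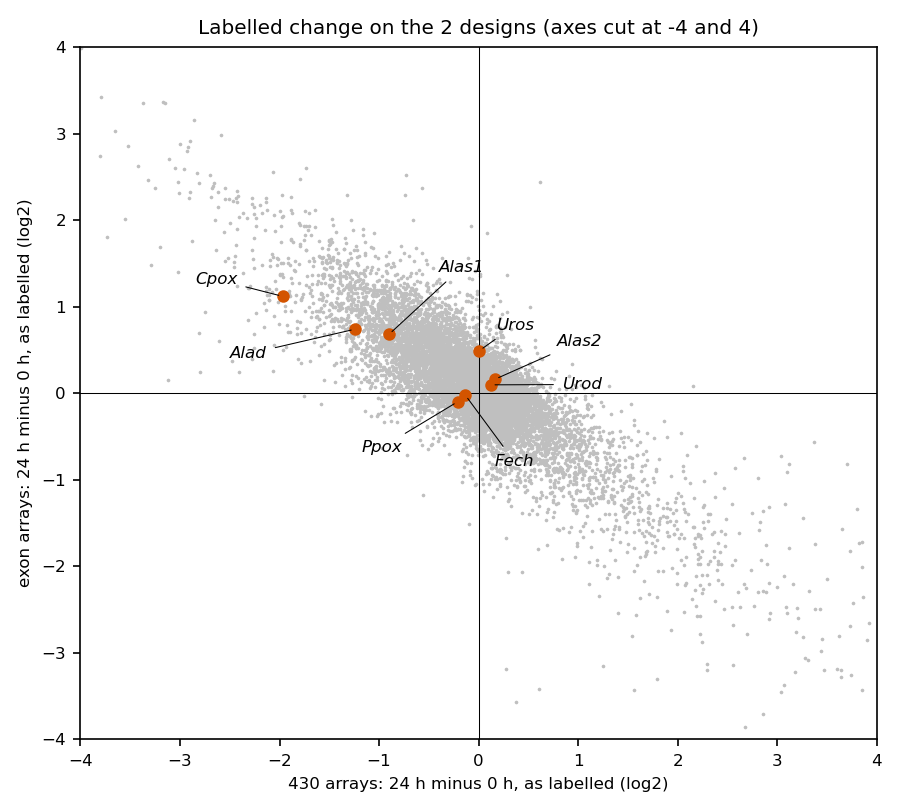
Labelled change (24 h minus 0 h, log2 units) on the 430 arrays (horizontal axis) and the exon arrays (vertical axis), with every shared gene in grey and the 8 heme enzymes in orange. The axes stop at -4 and 4, so genes beyond them are not drawn. Cpox, Alad and Alas1 lie in the upper left with the mass of genes whose labelled changes oppose each other, and Uros lies on the vertical axis.

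Markers of other cell types were read beside these results. Over all genes, 26.1% were called lower and 26% higher on the 430 arrays, and 10.8% lower and 19.3% higher on the exon arrays. Macrophage markers separated the times, opposite in direction to Alas1, Alad and Cpox on each design: 7 of 7 were called higher on the 430 arrays labelled 24 h, with summed linear signals of 40293 to 41481 at 24 h and 7502 to 8041 at 0 h. On the exon arrays 6 of 6 were called lower, with sums of 333 to 386 at 24 h and 2953 to 3139 at 0 h. Early myeloid progenitor markers were split. Of 7 on the 430 arrays 4 were lower (Gfi1 by a change of -5.07, Myb -3.05, Kit -2.37 and Il3ra -0.35) and 2 higher (Mpo 0.90 and Csf2rb 0.32), and their sums were 13242 to 14274 at 24 h and 23664 to 23880 at 0 h. On the exon arrays Gfi1, Myb and Kit were higher (changes of 3.51, 2.60 and 2.08) and Mpo lower (-1.06), with sums of 6269 to 6845 at 24 h and 3762 to 3902 at 0 h. The exon design thus had 3 of these 7 markers higher, 1 lower and 3 not called. Those not called were Il3ra (-0.31), Csf2rb (-0.21) and Cd34 (-0.096), all with negative changes. The median exon change of the 7 was -0.096, against 0.0064 for all genes. Gfi1, Myb and Kit had the labelled directions of Alas1, Alad and Cpox on both designs, and the other progenitor markers did not. The labelled change of Il3ra was negative on either design. Erythroid markers had fewer calls. On the 430 arrays 3 of 10 were called higher, near the share over all genes, and none lower, and 5 of the 10 lay below the median level. Their sums were 16261 to 16844 at 24 h and 14454 to 14804 at 0 h. Most of these sums came from Tfrc, with log2 means of 13.78 at 24 h and 13.62 at 0 h. Tfrc was not called (limma adjusted p = 0.0522). On the exon arrays 1 of 9 was called lower, again near the share over all genes, and 7 of the 9 lay below the median level. The sums overlapped there (2688 to 3748 at 24 h and 2934 to 3103 at 0 h). Mast cell and basophil markers were split, with 2 of 6 lower and 1 higher on the 430 arrays and 2 of 5 higher on the exon arrays, and 1 of 5 lymphoid markers was called lower on the 430 arrays and none of 4 called on the exon arrays. On the 430 arrays the calls of these last lists were near the shares over all genes. The part of the cell type markers in the changes of the heme enzymes was not tested. In RNA from whole cultures fewer cells of a type and less RNA per cell cannot be told apart.

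Cpox and Alad had the largest changes averaged over designs, and their nearest patterns were sought among the 13355 other shared genes, as the root mean square difference of centred log2 values over 12 arrays. The nearest to Cpox were Pck2, the mitochondrial phosphoenolpyruvate carboxykinase (0.0931), Ltbp1, a binding protein of latent TGF-beta (0.1), and Nolc1, a nucleolar ribosome assembly protein (0.11). Pck2 changed by -1.95 on the 430 arrays and by 0.95 on the exon arrays, and Nolc1 by -1.91 and 1.18. The nearest to Alad were Mlxipl, a glucose-responsive transcription factor (0.0773), Desi1 (0.0916) and Ada, adenosine deaminase (0.0954). Mlxipl changed by -1.23 and 0.90.

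Genes that supply the substrates of the first step were called in the same labelled direction as Alas1 on each design. On the 430 arrays labelled 24 h, 5 of 6 genes of glycine and succinyl-CoA supply were called lower and none higher (median -0.59, against 0.063 for all genes). On the exon arrays 3 of 5 were called higher and none lower (median 0.44, against 0.0064). Of all genes, 26.1% were called lower and 26% higher on the 430 arrays, and 19.3% higher and 10.8% lower on the exon arrays. Shmt2, which makes glycine in the mitochondrion, changed by -1.53 ± 0.0613 on the 430 arrays (SE, limma adjusted p = 1.67e-07) and by 0.88 ± 0.104 on the exon arrays (adjusted p = 0.00204). Suclg2, a succinyl-CoA ligase subunit, changed by -0.80 on the 430 arrays (adjusted p = 1.43e-05). Ogdh, a subunit of the oxoglutarate dehydrogenase that makes succinyl-CoA, changed by -0.76 on the 430 arrays and by 0.44 on the exon arrays (adjusted p = 0.000166 and 0.0231).

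Mitochondrial iron and iron-sulfur genes were lower in 3 of 5 cases on the 430 arrays labelled 24 h and higher in 3 of 4 on the exon arrays, with none called the other way. For all genes the shares were 26.1% lower and 26% higher on the 430 arrays, and 19.3% higher and 10.8% lower on the exon arrays. Slc25a37, mitoferrin-1, the carrier that brings iron into the mitochondria of red cell precursors, on the 430 arrays read 7.42 ± 0.167 at 24 h and 9.75 ± 0.101 at 0 h (SD, n = 3 each), a larger change (-2.33) than any of the 8 enzymes showed. On the exon arrays it read 7.66 ± 0.0549 at 24 h and 5.64 ± 0.145 at 0 h, a change of 2.02. Both were called (limma adjusted p = 2.02e-07 and 0.000113). Glrx5, an iron-sulfur cluster carrier, changed by -0.70 on the 430 arrays and by 0.98 on the exon arrays (adjusted p = 4.31e-05 and 0.00309), and Nfs1, the cysteine desulfurase, by -0.54 and 0.68 (0.000102 and 0.0113).

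Heme and porphyrin transporters were split. On the 430 arrays labelled 24 h 4 of 10 were lower and 3 higher, and on the exon arrays 4 of 10 were higher and 1 lower. The shares over all genes were 26.1% lower and 26% higher on the 430 arrays, and 19.3% higher and 10.8% lower on the exon arrays. The 3 of 10 higher on the 430 arrays and the 1 of 10 lower on the exon arrays are near those shares. Slc48a1, which carries heme out of lysosomes, changed by -1.07 on the 430 arrays and by 0.61 on the exon arrays (limma adjusted p = 9.64e-06 and 0.0229). Abcb6, a porphyrin transporter, changed by -1.0 and 0.77 (adjusted p = 2.91e-05 and 0.00226). Abcg2, which exports porphyrins, ran the other way, by 1.15 and -0.52 (adjusted p = 5.94e-06 and 0.0144).

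Of the enzymes that modify or attach heme, on the 430 arrays labelled 24 h 2 of 3 passed as lower, and 3 of 3 as higher on the exon arrays. This list is short, and among all genes 26.1% were called lower on the 430 arrays and 19.3% higher on the exon arrays. Cox10, which begins heme a synthesis, changed by -0.99 on the 430 arrays and by 0.76 on the exon arrays (limma adjusted p = 1.03e-05 and 0.00538). Hccs, which attaches heme to cytochrome c, changed by -0.87 and 1.29 (adjusted p = 6.28e-06 and 0.000559). Cox15, the next enzyme of heme a synthesis, was not called on the 430 arrays (-0.00036, 95% interval -0.21 to 0.21, adjusted p = 0.998) and was higher on the exon arrays (0.68, adjusted p = 0.00315). The 430 value of Cox15 rests on 1 of its 4 probe sets, with the suffix for probes that may match other transcripts.

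Heme breakdown genes were called in the direction opposite to Alas1, Alad and Cpox on each design. On the 430 arrays labelled 24 h 3 of 4 breakdown genes were called higher and none lower (median 0.77), and on the exon arrays 2 of 4 were called lower and none higher (median -0.49). Across all genes, 26% were called higher and 26.1% lower on the 430 arrays, and 10.8% lower and 19.3% higher on the exon arrays. Hmox1, the inducible heme oxygenase, on the 430 arrays read 9.99 ± 0.0251 at 24 h and 8.74 ± 0.0169 at 0 h (SD, n = 3 each; change 1.25, limma adjusted p = 4.53e-07). On the exon arrays it read 7.47 ± 0.0702 at 24 h and 9.07 ± 0.073 at 0 h (change -1.59, adjusted p = 0.000146). Of the biliverdin reductases, Blvrb changed by 0.55 on the 430 arrays and by -0.77 on the exon arrays (adjusted p = 0.000897 and 0.00276), and Blvra by 0.99 (3.08e-06) and -0.21, the last not called (0.156).

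**Figure D4:**
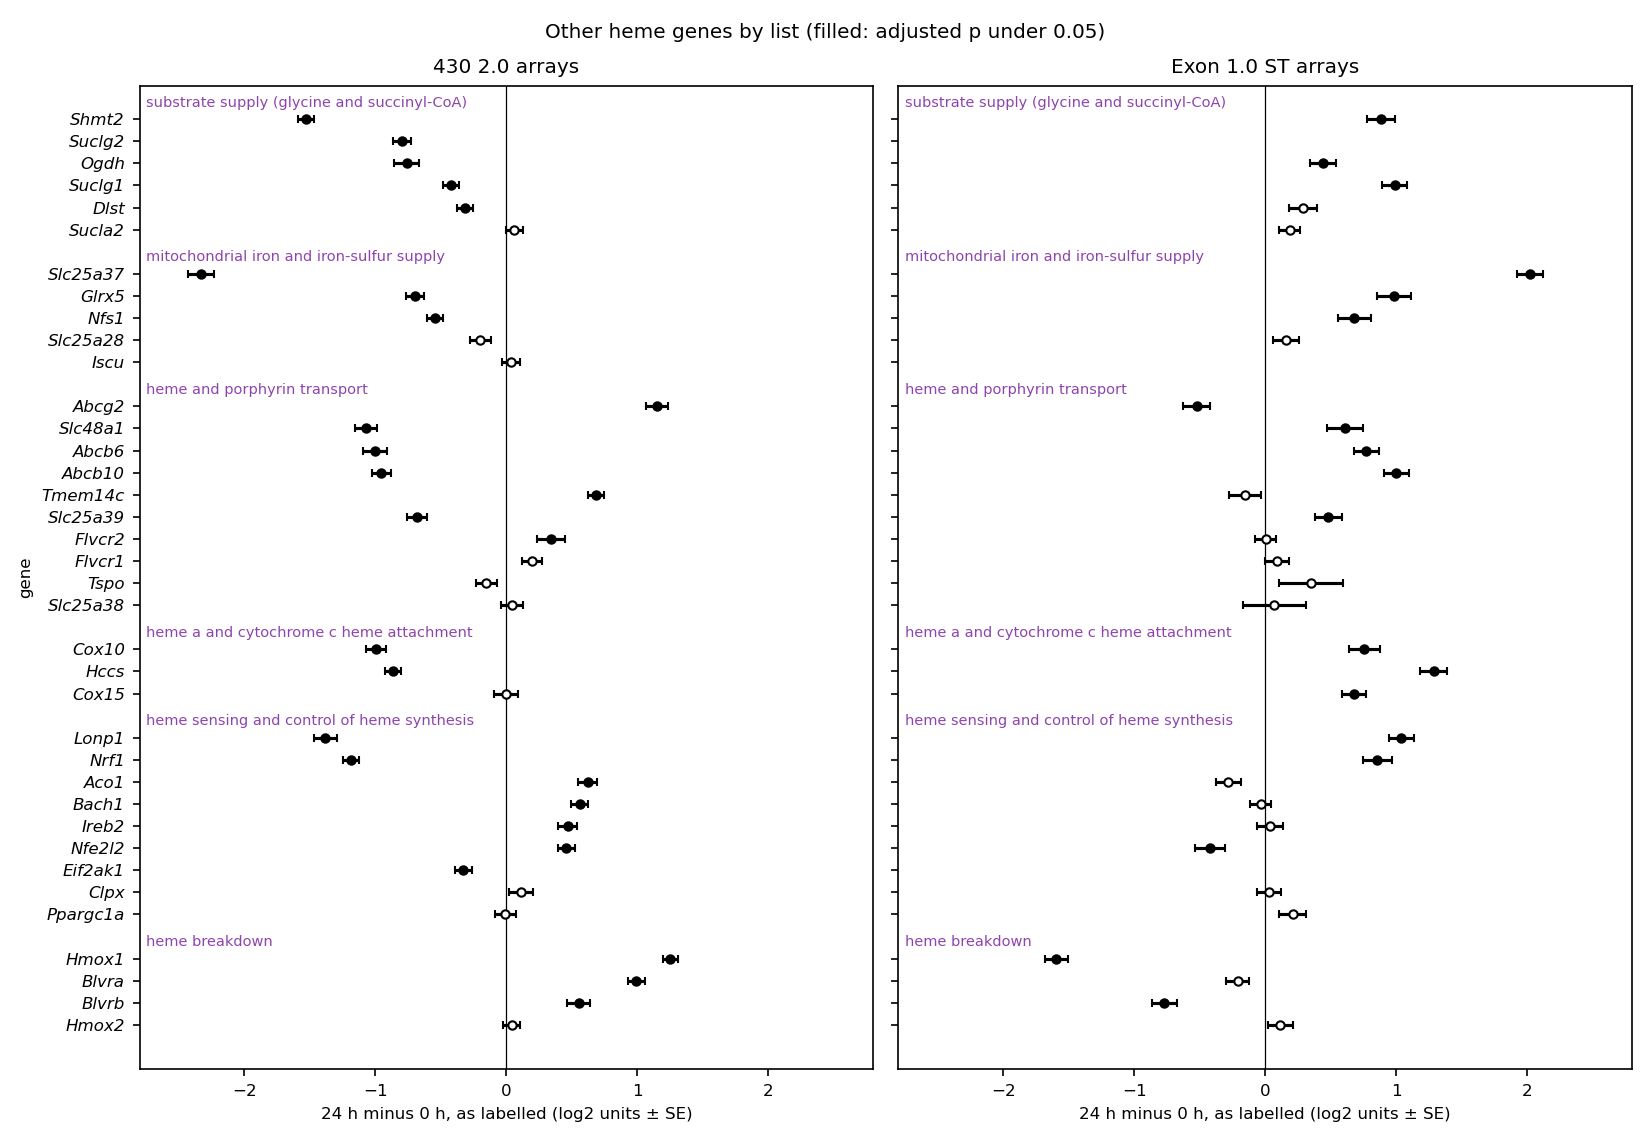
Labelled change, 24 h minus 0 h in log2 units with bars of 1 SE (horizontal axes), of other heme genes by list, on the 430 arrays (left) and the exon arrays (right). Filled points passed the threshold. The substrate and iron genes that passed lie to the left of 0 on the 430 arrays and to the right on the exon arrays, and Hmox1 lies on the opposite side from them on both.

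Genes that sense heme or control its synthesis were mixed, with 4 of 9 higher and 3 lower on the 430 arrays labelled 24 h. On the exon arrays 2 of 8 were higher and 1 lower, close to the shares over all genes. Those shares were 19.3% higher and 10.8% lower on the exon arrays, and 26% higher and 26.1% lower on the 430 arrays. Lonp1, the mitochondrial protease known to degrade ALAS1, changed by -1.38 on the 430 arrays and by 1.04 on the exon arrays (limma adjusted p = 2.57e-06 and 0.000816). Nrf1, nuclear respiratory factor 1, an activator of genes of mitochondrial respiration, changed by -1.18 and 0.86 (adjusted p = 5.94e-07 and 0.00264). Aco1, the iron regulatory protein IRP1, changed by 0.62 on the 430 arrays (adjusted p = 0.000106) and by -0.28 on the exon arrays, not called there (0.085).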

How the data were processed

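RNA of PUER cells was measured on 12 Affymetrix arrays. The authors deposited log2 signals, 1 table per array design, made with Affymetrix Expression Console per the submitters' processing notes, with the way probes were summarized not given in the sources used here. The labels describe a sense-strand whole-transcript target for the 430 arrays too. How background and array scaling were handled could compress or shift changes, most of all for dim features, and no detection calls were used. For microarrays the number of arrays, not a read depth, limits the precision.

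After 64 control probe sets were set aside on the 430 design, each table was fitted separately by lmFit and eBayes (limma 3.58.1, R 4.3.3). The fit was tested on simulated data. Symbols came from the platform annotation, updated through Entrez identifiers to RefSeq GRCm38.p6; of the named features with a single symbol, 34741 of 34945 on the 430 arrays and 14884 of 14939 on the exon arrays matched. A gene was represented by its single-symbol feature with the highest mean. For Shmt2, Aco1, Cox15 and Myb the 430 probe set so chosen carries the suffix for probes that may match other transcripts. Those of Fech and Suclg2 carry the s_at suffix, for probes shared by several transcripts. All members were named, with the 3 genes of largest 430 change in each other list (lists of 3 in full) and the 3 nearest patterns of 2 members. Members and lists were chosen with earlier results of these data known. Standard errors and 95% intervals are limma's moderated ones. Alternatives were quantile normalization, removed array medians, a filter on dim features, an intensity trend with robust variances, a replicate block, each array left out, a minimum log2 change of 1, means over all features of a gene, and exchanged exon labels. The means were added to the comparison of designs after seeing the data.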

Additional observations from a re-analysis of the deposited data

Results flagged for a closer look

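The labelled change of 4 members differed between the array designs in a test of the difference itself (430 change minus exon change, limma, adjusted over 13356 shared genes). The difference was -3.09 log2 units for Cpox (adjusted p = 3.42e-10), -1.98 for Alad (1.52e-08), -1.58 for Alas1 (3.60e-09) and -0.48 for Uros (0.00161), where 58% of shared genes were called. With the exon labels exchanged it was -0.85 for Cpox, -0.50 for Alad, -0.22 for Alas1 (not called) and 0.50 for Uros, so that the Uros difference turned its sign. With means over all features as well, only Uros of the 8 members was called (0.45). Groups of 3 arrays are too small for a check of single outlying arrays.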

How the results depend on the processing

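Alas1, Alad and Cpox were called on both designs, with the same sign, under every alternative run with 2 exceptions: a minimum log2 change of 1 left 2 members lower on the 430 arrays and 1 higher on the exon arrays, and exchanged labels turned the exon counts to 0 higher and 4 lower. On the 430 arrays 5 members were called lower with array medians removed (which moved all genes to 5225 lower and 3559 higher, against 4747 and 4736), without dim features and with the variance trend, and the last also called 1 higher. For the filter on dim features and the variance trend, counts over all genes are not given here. Leaving out 1 array gave 3 to 4 members lower on the 430 arrays (0 higher), 3 to 4 higher on the exon arrays (0 lower) and 4 called differences between designs. The replicate numbers were not taken as pairs in the main fit. Same-numbered deviations correlated between -0.0548 and 0.132, and different-numbered ones between -0.173 and 0.127. With 3 arrays per group these overlapping ranges cannot decide whether the arrays were paired. With the replicate block Uros was not called on the exon arrays (0.49, limma adjusted p = 0.0526), and no other member's call changed. Without dim features Alas2 has no value.

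Changes of members near 0 turned sign. With array medians removed Uros was -0.058 on the 430 arrays, and the differences between designs of Alas2 and Urod were -0.057 and -0.033. With means over all features, the 430 changes were -0.037 for Uros, -0.060 for Urod and 0.11 for Ppox, while Alad gave -0.66 and Cpox -1.25, both still called. With these means, added after seeing the data, the differences between designs were -0.15 for Urod, 0.21 for Ppox and 0.014 for Fech. With exchanged labels as well, 1 difference was called, and it was 0.078 for Alad, 0.45 for Uros and 0.0085 for Ppox. With quantile normalization Urod was -0.047 on the exon arrays, and the differences between designs were -0.095 for Alas2, 0.19 for Ppox and 0.14 for Fech. With 1 array left out, Fech ran from -0.13 to 0.097 on the exon arrays, and the differences of Alas2 from -0.069 to 0.10 and of Urod from -0.047 to 0.0801. Exchanged labels gave exon changes of -0.68 for Alas1, -0.16 for Alas2, -0.74 for Alad, -0.49 for Uros, -0.095 for Urod, -1.12 for Cpox, 0.10 for Ppox and 0.023 for Fech, and a difference of 0.50 for Uros. The cause of these turns was not tested; exchanging labels turns signs by construction. Small changes of dim features such as Alas2 are limited by signal over background.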
